A study of Mus musculus with 4 samples.

Results

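Grb10, Ddc and Cobl lie side by side on mouse chromosome 11, and the 5 kb bins listed here as differential for 5-hydroxymethylcytosine (5hmC) in their bodies, in the 5 kb upstream of each gene or between the genes are described. All 3 genes were found, and the rule gave 5 bins of the 8557 on the embryonic stem (ES) cell list and 19 of the 9002 on the mouse embryonic fibroblast (MEF) list. One bin was on both lists, so the stretch held 23 distinct listed bins among its 132 bins. The members were chosen from the same lists that are described, so their counts are a description and carry no test.

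TET enzymes oxidise 5-methylcytosine to 5hmC, which was captured by attaching an azide-glucose and then biotin to it, followed by streptavidin beads and sequencing. The groups were wild-type ES cells, LSH knockout ES cells, wild-type MEFs and LSH knockout MEFs, with 1 library each. LSH, a chromatin remodeler of the SNF2 family, is the product of Hells. ES cells were grown with LIF, and MEFs are embryo-derived cells of connective tissue. The labels name no culture, line, clone or embryo age behind a library. Each list sets the knockout against the wild type of 1 cell type and gives positions only, so neither a level nor a direction of change can be read for any bin, the read depth is unknown and no value has a replicate error. "Listed" below means only that the authors put the bin on that list. The libraries were made from bulk DNA, so a change in a fraction of the cells, or on 1 parental copy, cannot be told apart from a smaller change in all copies.

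Grb10 encodes an adaptor protein that binds the insulin and IGF1 receptors and restrains growth signalling. It is imprinted: most tissues express the maternal copy from the upstream promoter, while neurons express the paternal copy from downstream promoters that sit in a CpG island methylated on the maternal copy from the oocyte onward. Ddc, the gene for the decarboxylase that makes dopamine and serotonin, has a start that is imprinted in the heart. Cobl encodes cordon-bleu, an actin nucleator with WH2 domains.

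The sequences in Grb10 that this account turns on are those inside its MEF bins. For 3 of the 4 bins the 300 bases with the most CpG are given, CpG being the dinucleotide at which most cytosine methylation and hydroxymethylation of mammals lies, and windows touching an annotated UTR were passed over. The window of the only bin on both lists, in Cobl, is added; it was chosen after its values were seen. Sequences are from NCBIM37 (mm9), read 5′ to 3′ in the direction of the genes, with each CpG in capitals.
Grb10 intron 1, chr11:11911629-11911928, minus strand: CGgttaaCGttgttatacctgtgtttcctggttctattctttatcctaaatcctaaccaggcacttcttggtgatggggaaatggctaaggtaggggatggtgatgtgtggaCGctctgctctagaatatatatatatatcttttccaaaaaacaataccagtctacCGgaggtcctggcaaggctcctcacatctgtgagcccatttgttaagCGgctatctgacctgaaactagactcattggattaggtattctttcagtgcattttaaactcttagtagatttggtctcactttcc
Grb10 intron 4, chr11:11865548-11865847, minus strand: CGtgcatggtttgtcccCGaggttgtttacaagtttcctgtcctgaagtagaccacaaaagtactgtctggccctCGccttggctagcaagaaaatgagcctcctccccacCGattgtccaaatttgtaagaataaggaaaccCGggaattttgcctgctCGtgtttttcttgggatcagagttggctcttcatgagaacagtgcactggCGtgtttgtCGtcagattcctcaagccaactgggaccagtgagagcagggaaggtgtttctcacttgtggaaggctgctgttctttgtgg
Grb10 end, chr11:11830198-11830497, minus strand: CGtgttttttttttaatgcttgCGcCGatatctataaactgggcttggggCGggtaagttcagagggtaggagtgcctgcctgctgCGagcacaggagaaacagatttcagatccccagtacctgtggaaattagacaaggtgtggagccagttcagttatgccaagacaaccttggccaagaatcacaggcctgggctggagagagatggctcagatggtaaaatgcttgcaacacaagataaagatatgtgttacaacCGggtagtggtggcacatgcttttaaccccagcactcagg
Cobl intron 6, chr11:12235228-12235527, minus strand: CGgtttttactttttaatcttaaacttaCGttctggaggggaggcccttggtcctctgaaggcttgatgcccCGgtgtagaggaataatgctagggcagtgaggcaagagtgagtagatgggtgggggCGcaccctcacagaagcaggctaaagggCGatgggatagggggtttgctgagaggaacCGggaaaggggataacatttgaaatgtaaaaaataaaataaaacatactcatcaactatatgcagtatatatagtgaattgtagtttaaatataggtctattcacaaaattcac
The Grb10 windows held 5, 8 and 6 CpG in the order shown, and the Cobl window held 6. The window at the Grb10 end lies 14 bases past the last annotated base of the gene. None of the 4 windows touched an exon of the 3 genes. Of the 31-base words in them, 0% occur more than once in the genome in the windows of introns 1 and 4 of Grb10, 2.96% in the window at its end and 12.6% in the Cobl window.

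Grb10 (ENSMUSG00000020176.10, chromosome 11, 11830511 to 11938686, minus strand, 108.2 kb) had 4 MEF bins and 0 ES bins among the 23 bins of its body and 5 kb upstream. The MEF share was 17.4% (exact 95% binomial interval 4.95% to 38.8%, which here and below covers counting error over bins only). Over the genome, 1.75% of 511186 bins with sequence were on the MEF list and 1.67% on the ES list. At those shares 23 bins would hold 0.404 MEF bins and 0.384 ES bins. An ES count of 0 is therefore near the background, and it allows a share of up to 13.04% by 3 counts of the total, or 14.8% by the exact interval. Among 1171 genes of 0.8 to 1.2 times the length of Grb10, itself included, 3.42% had 4 or more MEF bins, and 40.9% had an ES bin. Of the 324 genes with 4 or more MEF bins, 85 (26.2%) had no ES bin, so the combination seen at Grb10 recurred elsewhere.

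The 4 MEF bins stood apart from one another and all lay downstream of both promoters that hold a CpG island. Most of the 23 bins of Grb10 lie downstream of these promoters too, and the placement was not tested. The bin nearest to the start (11910001 to 11915000) began 23.7 kb downstream of it, inside intron 1 of Grb10-005, the longest coding transcript, which has 17 exons. The next (11865001 to 11870000), at 68.7 to 73.7 kb, held exon 4, and 9 annotated Grb10 transcripts had an exon in it. The bin at 11850001 to 11855000, 83.7 to 88.7 kb from the start, held exons 5 and 6. The last (11830001 to 11835000) held exons 16 and 17, the 3′ end of the gene. Of the 5 bins in Grb10 with an exon and no transcript start, 3 were thus listed, against 0.109 at the shares of bins of like CpG density. Of 11 bins with intron sequence only, 1 was listed, against 0.0953. The 6 bins with a transcript start also hold exons, and 0 of them were listed. A difference between exon and intron bins was not tested.

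**Figure D1:**
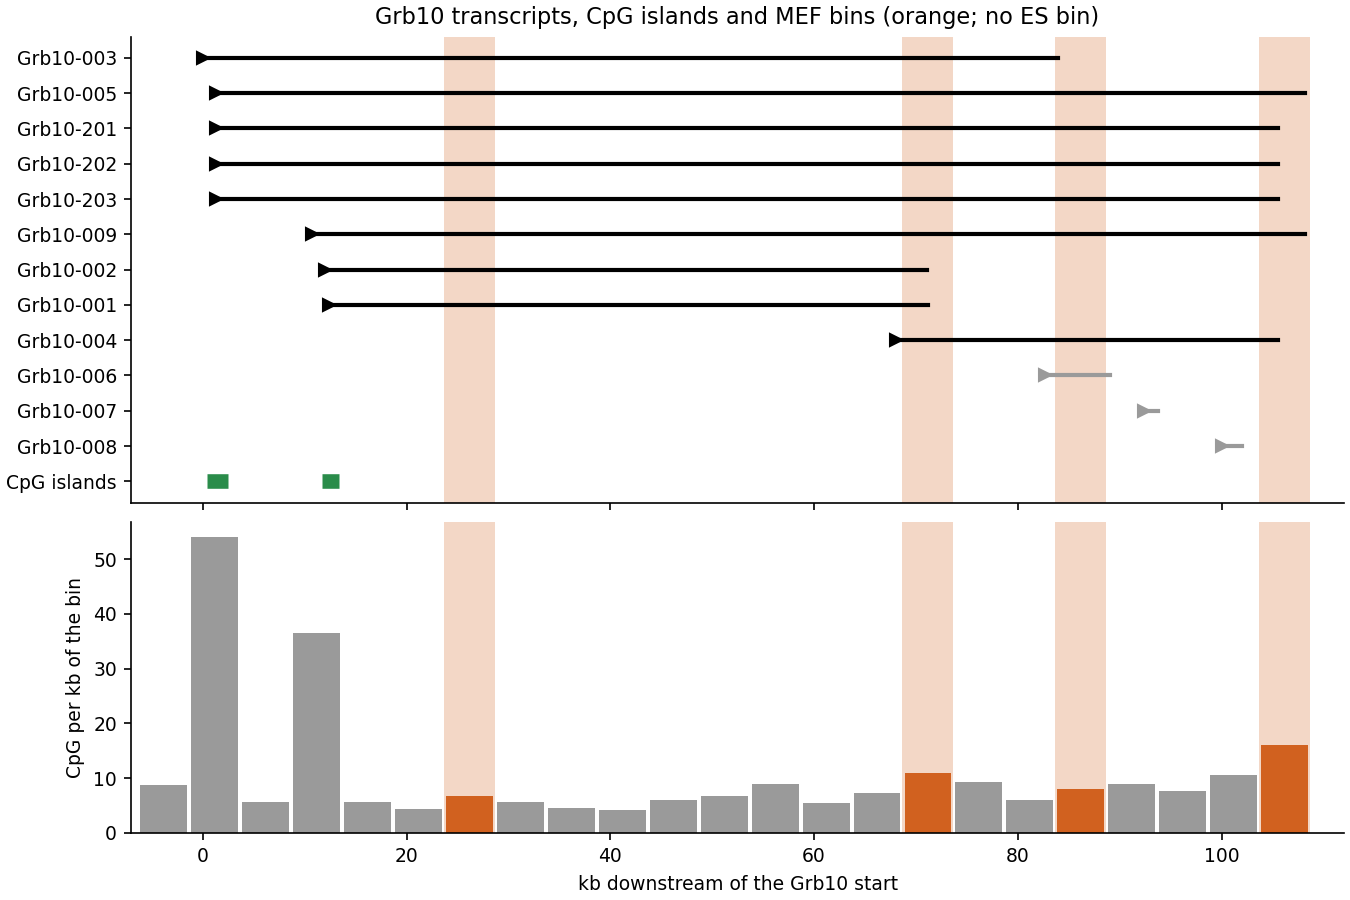
Annotated Grb10 transcripts (black coding, grey non-coding; triangles mark their starts), CpG islands (green) and, in the lower panel, CpG per kb of each 5 kb bin, against distance in kb downstream of the Grb10 start. Orange marks the 4 MEF bins, which lie between 23.7 and 108.7 kb and miss both CpG islands. At the genome share of their CpG group the 2 island bins would hold 0.0743 MEF bins, so 0 there is near the background. No bin of the gene was on the ES list.

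The 12 annotated Grb10 transcripts have 9 distinct starts in 6 bins, and 0 of these 6 were on either list. At the shares of bins of like CpG density, 0.154 MEF bins and 0.170 ES bins would be listed among the 6, so a count of 0 there is near the background. The upstream promoter bin (11935001 to 11940000) held the start of Grb10-003 and the start that Grb10-005 shares with 3 other coding transcripts, with 270 CpG, the most in the gene. Its island spanned 11936234 to 11938228 (1995 bp, 224 CpG, 66.7% GC). The bin of the downstream promoters (11925001 to 11930000) held the starts of Grb10-009, Grb10-002 and Grb10-001, at 10.7, 11.95 and 12.4 kb, with 182 CpG. The island there spanned 11925330 to 11926995 (1666 bp, 158 CpG, 63.4% GC). The MEF bin nearest to the Grb10-001 start lay 11.3 kb away, and the nearest ES bin 136.3 kb away. A further coding transcript, Grb10-004, starts 68.0 kb downstream, in an unlisted bin but 0.645 kb from the MEF bin over exon 4. A bin on neither list says that no call was made there, not that 5hmC was the same in knockout and wild type.

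The listed bins of Grb10 were not its richest in CpG. By CpG count the 4 MEF bins ranked 3, 4, 10 and 14 of 23, with 80, 55, 40 and 34 CpG in 5 kb. Per kb they held 6.8 to 16 CpG, with a median of 9.5, against a median of 6.8 in the 19 unlisted bins, where the range was 4.2 to 54. The median was 7 over all bins of the genome and 11 over the MEF list. In the genome, bins of the CpG group of the 2 island bins were on the MEF list in 3.71% of cases and on the ES list in 5.59%, while bins like the intron 1 bin were on the MEF list in 0.949%. The group of the island bins is the densest of the 10 and is broad. It also holds the bin at the 3′ end of Grb10, with 16 CpG per kb against 54 and 36.4 in the island bins. Summed over the 23 bins, shares of bins of like CpG density gave 0.380 MEF bins and 0.344 ES bins. Words of 31 bases that recur in the genome, which make reads hard to place, made up at most 3.28% of any Grb10 bin.

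Ddc (ENSMUSG00000020182.9, 11714104 to 11798047, minus strand, 83.9 kb) lies 32.5 kb past the end of Grb10. It had the highest share of listed bins of the 3 genes in both cell types, a ranking that was not tested. That ranking does not allow for CpG density, whose median per kb was 10.2 in Ddc, 7.2 in Grb10 and 5.8 in Cobl. It had 6 MEF bins and 3 ES bins among 19. The MEF share was 31.6% (12.6% to 56.6%) and the ES share 15.8% (3.38% to 39.6%). Among 1353 genes of 0.8 to 1.2 times its length, 0.296% had 6 or more MEF bins and 4.58% had 3 or more ES bins. No Ddc bin was on both lists, and over chromosomes 1 to 19 and X only 4.75% of ES bins and 4.53% of MEF bins were. At the shares of bins of like CpG density, 0.589 MEF bins and 0.574 ES bins would be listed.

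Most MEF bins of Ddc lay together towards its 3′ end, but the MEF bins at exon 5 and upstream lay 5′ of the ES bin in intron 6. A run of 4 touching MEF bins (11715001 to 11735000) covered 63.0 to 83.0 kb from the start, with exons 10 to 14 of the 15 of Ddc-001, and it was the longest run of the stretch. A MEF bin at 11765001 to 11770000 held exon 5, and one at 11800001 to 11805000 lay upstream, with its near edge 1.95 kb from the start. The ES bins were a touching pair at 11780001 to 11790000, 8.05 to 18.05 kb from the start, and a single bin in intron 6 (11755001 to 11760000). The pair began 0.404 kb downstream of the start shared by Ddc-201 and Ddc-008, a start 7.64 kb inside the gene. The bin of that start (11790001 to 11795000) was on neither list. The short non-coding transcripts Ddc-006 and Ddc-007 began in listed bins, Ddc-006 in an ES bin and Ddc-007 in a MEF bin.

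Cobl (ENSMUSG00000020173.10, 12136611 to 12364963, minus strand, 228.4 kb) had 7 MEF bins and 2 ES bins among 47. The MEF share was 14.9% (6.20% to 28.3%) and the ES share 4.26% (0.520% to 14.5%). Of 477 genes of 0.8 to 1.2 times its length, 5.66% had 7 or more MEF bins and 24.9% had 2 or more ES bins. Every listed Cobl bin was in an intron, where 7 of 31 bins were on the MEF list and 2 on the ES list. At the shares of bins of like CpG density, 0.249 MEF bins and 0.125 ES bins would be listed there. Of 11 exon bins and 4 bins with a start, 0 were on either list. That is near the 0.136 and 0.0712 MEF bins and the 0.0841 and 0.0767 ES bins at those shares. Over all 47 bins of Cobl, 0.490 MEF bins and 0.314 ES bins would be listed at like CpG density.

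Most of the Cobl bins lay in its long first intron. There a run of 3 touching MEF bins (12325001 to 12340000) covered 25.0 to 40.0 kb from the start, and single MEF bins lay at 12315001 and 12300001. The ES bin at 12290001 to 12295000 was 5 kb from the latter. The start of Cobl-008 (12312147) lay between these MEF bins, 2.85 kb from the nearer one, in an unlisted bin with 20 CpG. Further in, a MEF bin at 12255001 to 12260000 lay in intron 5. The bin at 12235001 to 12240000, in intron 6, was on both lists; it held 43 CpG, and the sequence of its richest window is given above. The promoter island of Cobl (12364324 to 12365497, 94 CpG) spanned 2 bins, both unlisted.

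**Figure D2:**
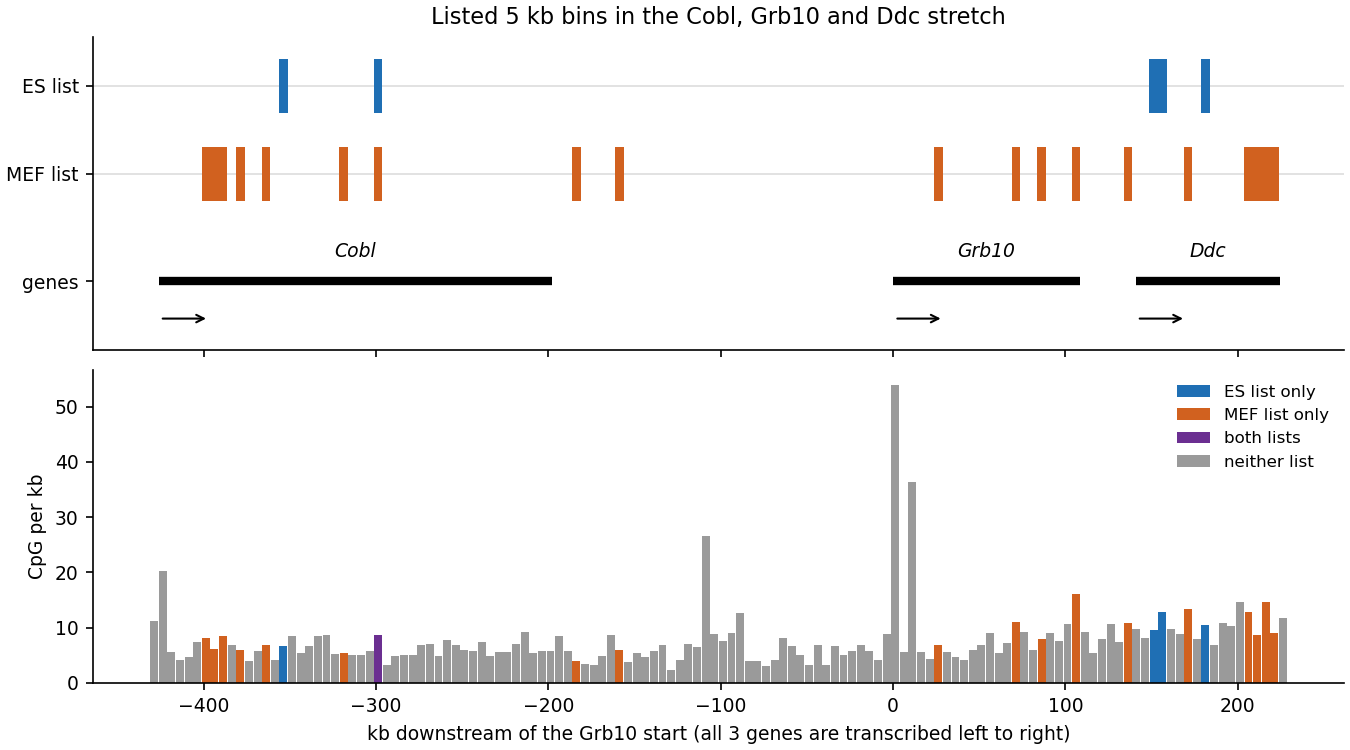
Listed bins (upper panel: ES in blue, MEF in orange, gene bodies in black with arrows in the direction of transcription) and CpG per kb of all 132 bins (lower panel), against distance in kb downstream of the Grb10 start. The 19 MEF bins spread over all 3 genes and part of the gap beside Cobl, and the 5 ES bins lie in Cobl and Ddc. The 2 bins richest in CpG, at the Grb10 promoters, are on neither list, a count near the background.

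Between the genes, the MEF share was below that of each of the 3 genes, a difference that was not tested. The 5 bins between Ddc and Grb10 held 0 listed bins in either cell type. At the shares of bins of like CpG density they would hold 0.0901 MEF bins and 0.0645 ES bins, so 0 is near the background. The 38 bins between Grb10 and Cobl held 2 MEF bins, at 12095001 and 12120001, a share of 5.26% (0.644% to 17.7%), and 0 ES bins. At like CpG density 0.355 MEF bins and 0.249 ES bins would be listed there, so the ES count of 0 is near the background. These 2 bins were poor in CpG, with 30 and 20 in 5 kb.

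**Figure D3:**
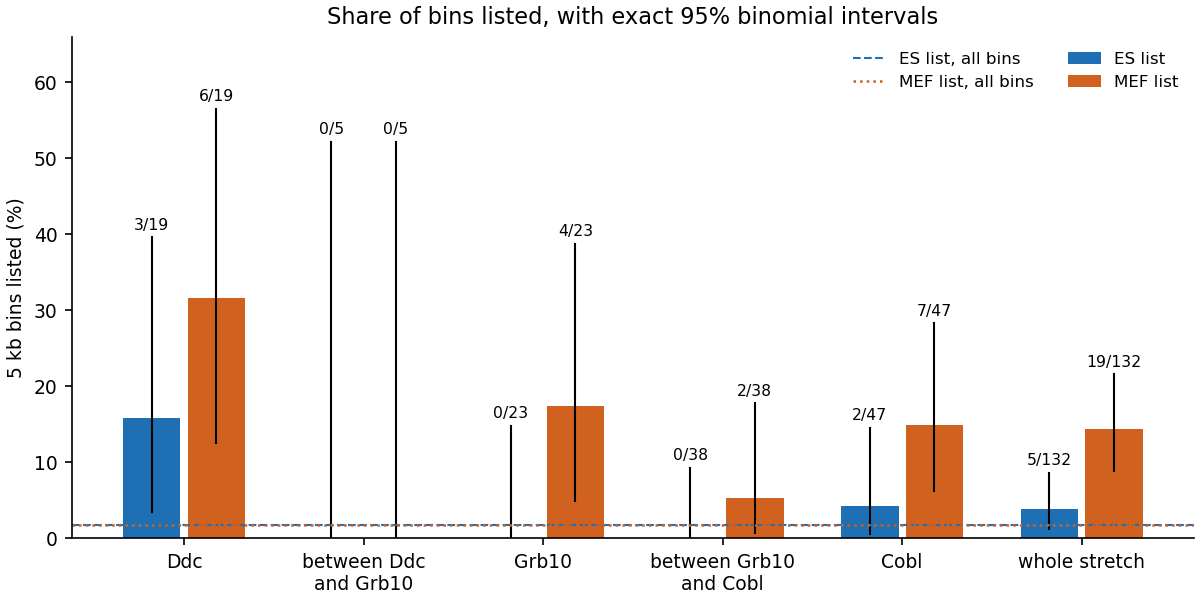
Share of 5 kb bins listed (%) in each gene with its 5 kb upstream, in the gaps and in the whole stretch; bars are shares, black lines exact 95% binomial intervals over bins, labels listed over all bins, and horizontal lines the shares over the genome. The MEF share is the higher in each of the 3 genes, with 31.6% in Ddc, 17.4% in Grb10 and 14.9% in Cobl; the members were chosen from these lists, so bars and lines make no test.

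Across the whole stretch (11710001 to 12370000), the MEF share was 14.4% (8.89% to 21.6%) and the ES share 3.79% (1.24% to 8.62%). At the shares of bins of like CpG density, 1.90 MEF bins and 1.55 ES bins would be listed among the 132, where 19 and 5 were. Of 3864 windows of 132 bins tiled along the genome, 11 (0.285%) held 19 or more MEF bins and 19.5% held 5 or more ES bins. The median window held 1 bin of either list. No difference between the cell types was tested, and with 1 library per group it cannot be told apart from a difference in depth or calling between the lists.

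No MEF bin lay in the 1 Mb on either side of the stretch, and whether the listed region ends there was not tested. In the 1 Mb before Ddc, 0 of 200 bins were on the MEF list and 0 on the ES list. Its coding genes are Fignl1, Ikzf1, 4930512M02Rik, 4930415F15Rik, Zpbp and Vwc2. In the 1 Mb after Cobl, which holds the coding gene Gm17624, 0 of 200 bins were on the MEF list and 1 on the ES list, at 13040001. The nearest MEF bin outside lay 1760 kb before the stretch, and on the other side 4300 kb after it, at Egfr, the gene of the epidermal growth factor receptor. A count of 0 in 200 allows a share of up to 1.5%. At the shares of bins of like CpG density the flanks would hold 1.98 and 1.54 MEF bins, so 0 on each side lies little below the background. The ES list would give 1.52 and 1.18 bins there, where 0 and 1 were listed. Median CpG density was 5.2 and 4.2 per kb in the flanks, against 6.8 in the stretch.

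**Figure D4:**
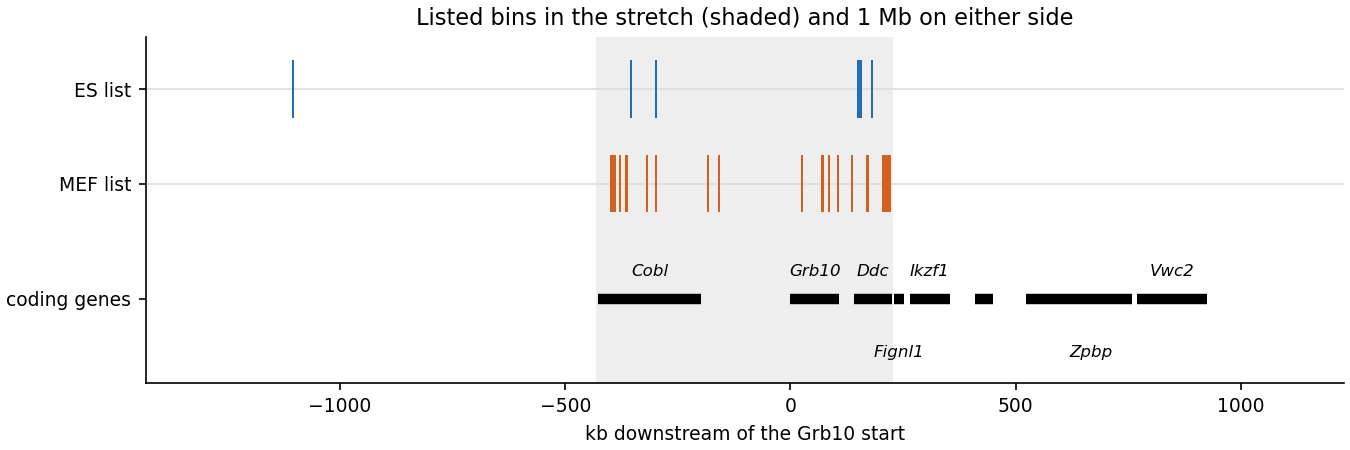
Listed bins (ES blue, MEF orange) and coding genes (black) in the stretch (shaded) and 1 Mb on either side, against distance in kb downstream of the Grb10 start. All 19 MEF bins of this window lie in the shaded stretch, and 1 ES bin lies outside it.

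**Figure D5:**
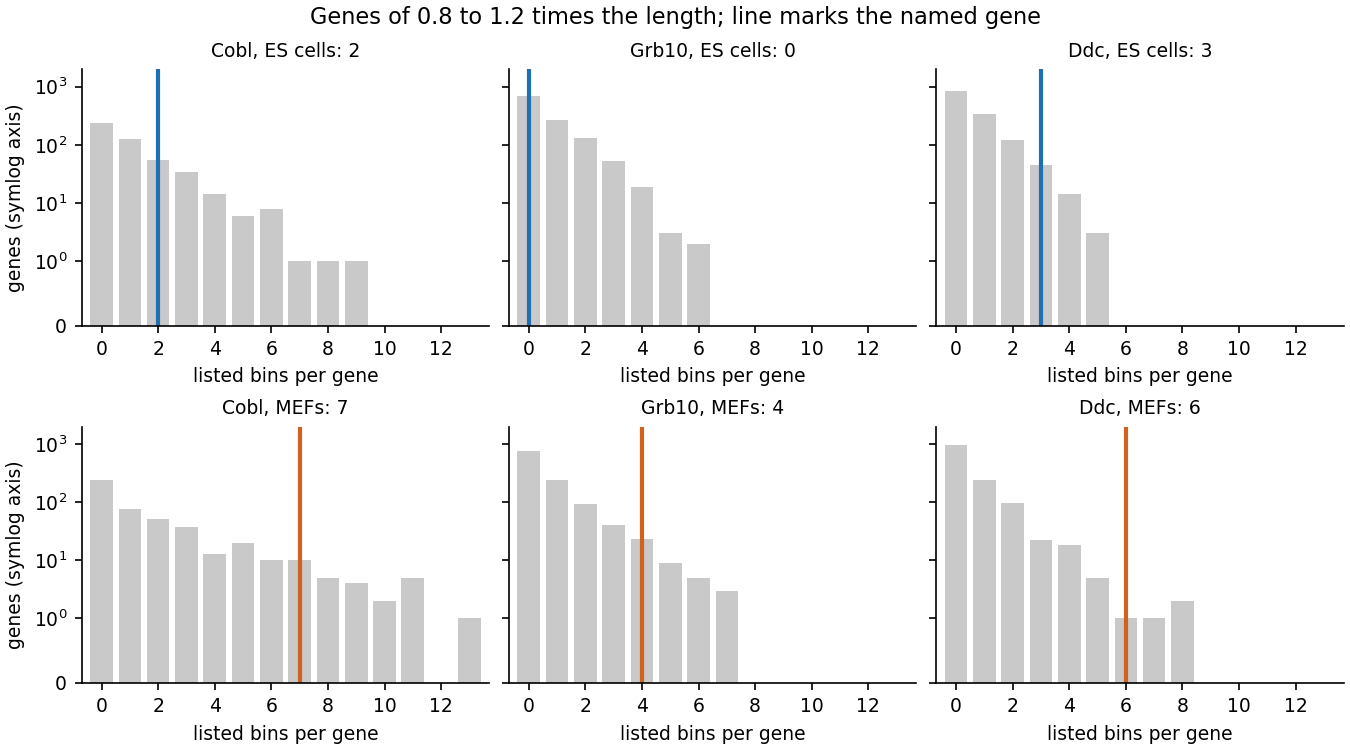
Number of genes (vertical axis, linear to 1 and logarithmic above) by listed bins per gene, among genes of 0.8 to 1.2 times the length of Cobl, Grb10 or Ddc, for the ES list (top) and the MEF list (bottom). Lines mark the named gene: 4 MEF bins at Grb10, 6 at Ddc and 7 at Cobl, against medians of 0.

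The 2 lists shared 1 bin of the stretch, which is 20% of its ES bins and 5.26% of its MEF bins. Over chromosomes 1 to 19 and X, 406 bins were shared, or 4.75% of ES bins and 4.53% of MEF bins. When touching bins were counted as shared, the number in the stretch was still 1.

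Related genes gave context for each member. The other adaptors of the Grb7 family, Grb7 (8.98 kb) and Grb14 (112.5 kb), had no bin on either list. Grb14 is about as long as Grb10, and among genes of like length to Grb10 65.0% had no MEF bin and 59.1% no ES bin. Of 24 genes of insulin and IGF signalling, 8 had a MEF bin (33.3%, against 14.1% of 26031 genes) and 5 an ES bin (20.8%, against 19.8%). These shares are not scaled by gene length, and the median was 0 bins in this list and over all genes. Igf1r, whose receptor Grb10 binds, had 5 MEF bins and 7 ES bins in 273.8 kb, while Insr, the insulin receptor gene, had none. Mtor, the kinase gene, had 2 MEF bins, and Rptor, its partner in the growth-controlling complex, had 2 MEF bins and 3 ES bins. Igf1, Irs1, Sos1, Pik3r1 and Rps6kb1 had 1 MEF bin each. Irs2, Pdpk1 and Nedd4, the ligase gene whose product binds Grb10, had 1 ES bin each.

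Around Ddc, 14 genes of monoamine synthesis and handling were counted. With Ddc, 2 had a MEF bin (14.3%, against 14.1% of all genes), the other being Gch1, which makes the cofactor of the hydroxylases, with 1. An ES bin was found at 3 (21.4%, against 19.8%), Ddc and, with 1 each, the hydroxylase genes Th and Tph1. Of 16 actin nucleator genes, Cobl among them, 7 had a MEF bin (43.8%, against 14.1% of all genes) and 8 an ES bin (50%, against 19.8%). Many of these genes are long, such as Diap3 with 485.9 kb, and the shares are not scaled by length. Fmn1, a formin gene of 389.0 kb, had 8 MEF bins and no ES bin, and Cobll1, the paralog of Cobl, had 2 MEF bins and no ES bin. Daam1 had 4 MEF and 2 ES bins, Fmnl2 had 2 and 4, Diap3 had 2 and 2, and Diap1 had 1 and 3. Daam2, Fmn2 and Wasl had 1 ES bin each.

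Among 20 genes at other imprinted regions methylated on the maternal copy, 6 had a MEF bin (30%, against 14.1% of all genes) and 10 an ES bin (50%, against 19.8%), likewise not scaled by length. None had as many MEF bins as Grb10. Igf2r, the receptor that clears IGF2, had the opposite counts to Grb10, with 4 ES bins and 0 MEF bins. Trappc9 had 2 of each, and Peg3, Sgce and Airn had 1 of each. Gnas had 2 ES bins and 1 MEF bin. Nespas, which overlaps Gnas, had the same 2 ES bins, and H13, Commd1 and Impact 1 each. Plagl1 had 1 MEF bin.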

How the data were processed

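5hmC-bearing DNA was captured and sequenced in 4 libraries, 1 for each genotype and cell type. The submitters' processing notes name mm9, BWA and SAMtools 1.3.1 without roles. How bins were counted and called, at what threshold and whether against an input library is not given in the sources used here. Deposited tables are lists of 5 kb bins: chromosome, start, end and a bin number, values of a kind other than a level, fold or p-value. Depth is unknown, so 5hmC itself gets no floor and no interval.

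On the chromosomes held by the reference, the deposited bin numbers equalled its cumulative numbering for 8547 of 8547 entries (ES) and 8975 of 8975 (MEF), so NCBIM37 (mm9) with GENCODE M1 was used. Positions are printed 1-based. The background was the 511186 bins of chromosomes 1 to 19 and X with at most 50% undetermined bases. Genes were 26031 protein-coding, lincRNA and processed transcript names, the longest locus kept per name. A bin belonged to a gene if any base lay in the body or 5 kb upstream. Genes of like length exclude models that contain 10 or more other genes. Bins were put in 10 groups by CpG density for shares at like CpG density. CpG islands are joined 500 bp windows with at least 55% GC and an observed to expected CpG ratio of at least 0.65. Repeated words are 31-base words found more than once in the genome on either strand. Symbols of the 5 gene lists were matched by name or by RefSeq synonym; Kcnq1ot1 and Peg13 were not found.

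No test was made, since groups have 1 library and the members were chosen from these lists. The members and lists were chosen with earlier results of these data known. Named were the 3 genes, all their bins, the flanks to 1 Mb and each gene of the lists with a bin; the genes of these lists named without one were chosen after their values were seen. The sequence window of 1 Grb10 bin is not reported here. Counting steps were tested on simulated sequence. Python 3.11.15, numpy 2.4.6, scipy 1.17.1, numba 0.67.0 and matplotlib 3.10.9 were used.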

Additional observations from a re-analysis of the deposited data

How the results depend on the processing

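Counts were recomputed with 0 kb or 20 kb upstream, by bin midpoint, with at least 1 kb of the bin in the gene, and with the longest coding transcript as the gene. The 46 alternatives for the counts of the stretch, its genes and the shared bin stayed within 1.5 times the reported count. The 4 alternatives for the background lay outside the exact 95% interval of the share over all bins: 2.58% (ES) and 2.38% (MEF) in bins of genes only, and 1.17% and 1.44% at the CpG density of the stretch. The shares over all bins were 1.67% and 1.75%. Of 30 alternatives for gene lists, 1 moved: with 0 kb upstream, 1 monoamine gene had a MEF bin. Other counts shifted with the upstream length without being counted as moved. With 20 kb, 9 genes at other imprinted regions had a MEF bin and 13 an ES bin, against 6 and 10 as reported, and with 0 kb 5 and 10. Of the insulin and IGF genes, 10 had a MEF bin and 7 an ES bin with 20 kb, against 8 and 5. The share over all genes at 20 kb is not given here. No paired analysis was possible because each group has 1 library. A stricter calling threshold could not be tried, since the lists give no score. The unknown depth leaves it unsettled whether an unlisted bin lacked a difference or the reads to show one.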

Other observations

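Both antisense genes of the stretch lie inside Ddc or Cobl and overlapped listed bins already counted there. Over all genes, 19.8% had an ES bin and 14.1% a MEF bin. 1700042O10Rik (11768126 to 11785324, plus strand), which runs against the 5′ part of Ddc, touched 2 ES bins and 1 MEF bin of its 5 bins. Gm12002 (12214517 to 12251031, plus strand), inside Cobl, touched 9 bins, and the 1 that was listed is the bin on both lists. The lists cannot assign these bins to either strand.

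A CpG-rich piece between Grb10 and Cobl (12045447 to 12047272, 104 CpG) has no annotated start of the 3 genes near it. Its bin was on neither list, and 94.6% of the bin's 31-base words have another copy elsewhere in the genome.

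The RefSeq promoter sequences of the 3 genes, 2 for each, matched the reference exactly once each, and 0 of the bins they lie in were on either list. Bins in the CpG groups of these bins were on the MEF list in at most 3.71% of cases and on the ES list in at most 5.59%. A count of 0 in so few bins is therefore near the background. The Grb10 promoters (11937374 to 11937673 and 11927925 to 11928224) held 45 and 9 CpG. The Ddc promoters held 2 and 5, and those of Cobl 42 and 0.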
